A study of Mus musculus with 18 samples.

Results

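The phospholipid scramblase genes *Plscr1*, *Plscr2*, *Plscr3* and *Plscr4* were followed in RNA from 18 mouse tumors. They are 4 of the 20878 genes in the expression matrix and were taken as a gene family, chosen with earlier results of these data known. All tumors grew from K7M2 cells, a poorly differentiated osteosarcoma line of Balb/c origin, grafted into young female mice. The cells carried either a control shRNA (ATRX-CT) or an shRNA against the chromatin remodeler gene *Atrx* (ATRX-KD), delivered by lentivirus. The hosts were Balb/c mice, which share the origin of the cells and have an intact immune system, and NSG mice, which lack T, B and NK cells. Each tumor came from its own animal, with 4 ATRX-CT and 4 ATRX-KD tumors from Balb/c hosts and 5 of each from NSG hosts. Whole cages were assigned to a kind of cell and the labels give no cage, so cage and knock-down cannot be told apart. Both hosts received the same ATRX-CT and ATRX-KD cells, so any other difference between these transduced cells cannot be told apart from the knock-down. The hosts also differ in strain. The RNA comes from whole tumors, so fewer cells that express a gene and less RNA per cell cannot be told apart, nor can RNA of grafted cells and of the host.

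The family was chosen with measured values in view. *Plscr4* was selected on its level in Balb/c tumors, since the study drew it among the genes that were lower in ATRX-KD tumors of that host, and what else put the family forward is not recorded. The Balb/c difference between ATRX-KD and ATRX-CT is therefore given as a description for all members, with no test, as is every comparison of *Plscr4* that holds Balb/c tumors. Because NSG tumors grew from the same kinds of cell as Balb/c tumors, the NSG test of *Plscr4* is not independent of its selection. The NSG difference was tested for all 4 genes, and the host differences for *Plscr1*, *Plscr2* and *Plscr3*, which makes 10 tests. Each was fitted on log2 (FPKM + 1) with limma over every gene whose mean reached 0.1 FPKM, where FPKM (fragments per kilobase of transcript and per unit of sequencing depth) is comparable between genes of different length. A gene passed at a Benjamini-Hochberg adjusted p under 0.05, and was called when the fold on this scale was also at least 2. These log2 differences understate the change of low genes, because 1 is added to each value.

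Membranes keep phosphatidylserine on their inner leaflet, and scramblases let phospholipids cross between leaflets in both directions. Exposed phosphatidylserine marks dying cells for uptake by phagocytes and provides a surface for blood clotting. *Plscr1* is the founding member of the family, a palmitoylated membrane protein whose gene is induced by interferon and which can also enter the nucleus. *Plscr2* is its closest relative in the mouse, *Plscr3* acts on cardiolipin in mitochondria, and *Plscr4* is a less studied plasma membrane member that, like *Plscr1*, binds CD4. The channel-related protein *Ano6* and the caspase-activated *Xkr8* are the scramblases best established for exposing phosphatidylserine.

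In mm10, 3 of the 4 genes lie in a row on the plus strand of chromosome 9. *Plscr1* spans chr9:92250194-92272561 with 9 exons, and *Plscr2* spans chr9:92275602-92297752 and starts 3040 nt to the right of it. *Plscr4* spans chr9:92457378-92492516, also with 9 exons. *Plscr3* lies elsewhere, at chr11:69846372-69852058 on the plus strand, with 3 annotated transcripts of which 1 is noncoding. The coding sequences of *Plscr1* and *Plscr2* are identical at 82.9% of 924 aligned nucleotides, whereas the other pairs are identical at 57.9% to 64.8%. Even so, no stretch of 75 nt is identical between the transcripts of *Plscr1* and *Plscr2*. This count holds identical stretches only, and whether reads of 1 of these genes were assigned to the other despite mismatches was not tested. Some 6.53% of the 75-nt windows of *Plscr1* also occur in *Gm5530*, a gene not analysed here. Of the genes that overlap a member, *Tnk1* lies on the opposite strand of the end of *Plscr3* and was at most at 0.0605 FPKM in any tumor, and *Mir6386*, opposite *Plscr1*, was not analysed here. The strand setting of the quantification is not given in the sources used here.

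The bases just before the start site are shown for the 3 members with an entry in the RefSeq promoter table (GRCm38.p6), which holds none for *Plscr2*. They are a description, and a link of their composition to the levels was not tested. Each sequence holds 250 bases on the plus strand, up to the base before the annotated start. Capitals mark each CpG, the dinucleotide at which mouse DNA is methylated.
*Plscr1*, chr9:92249944-92250193: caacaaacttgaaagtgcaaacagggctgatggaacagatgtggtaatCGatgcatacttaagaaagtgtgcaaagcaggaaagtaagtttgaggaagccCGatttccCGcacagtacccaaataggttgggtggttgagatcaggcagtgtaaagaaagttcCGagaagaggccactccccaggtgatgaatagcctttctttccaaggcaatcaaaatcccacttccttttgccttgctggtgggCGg
*Plscr3*, first of 3 starts, chr11:69846122-69846371: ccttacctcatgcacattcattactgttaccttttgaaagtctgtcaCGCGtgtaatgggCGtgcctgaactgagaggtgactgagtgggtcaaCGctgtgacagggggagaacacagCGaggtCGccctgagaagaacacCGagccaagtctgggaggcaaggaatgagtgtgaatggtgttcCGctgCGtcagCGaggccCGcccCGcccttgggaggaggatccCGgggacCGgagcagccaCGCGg
*Plscr4*, chr9:92457128-92457377: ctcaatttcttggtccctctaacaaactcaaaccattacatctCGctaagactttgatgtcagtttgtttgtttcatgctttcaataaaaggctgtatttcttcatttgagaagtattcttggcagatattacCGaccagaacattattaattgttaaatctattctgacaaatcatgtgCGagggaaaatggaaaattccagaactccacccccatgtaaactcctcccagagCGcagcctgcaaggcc
The window of *Plscr3* shown had 16 CpG and 59.6% GC, and those of its other starts had 22 and 21 CpG and 69.6% GC each. That of *Plscr1* had 5 CpG and 47.2% GC and that of *Plscr4* 4 CpG and 39.6% GC. The median GC over all promoters was 52.4%. The core of the interferon-stimulated response element, GAAA followed by any 2 bases and GAAA again, was searched on both strands from 250 bases before to 50 bases after each start. It is in 3.44% of 32851 mouse promoters and in 0 of the member windows. The absence of these letters says nothing of the window's other sequence or of what binds there.

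Depth was estimated at 15150000 to 25200000 fragments per tumor, which put 140 to 510 fragments on *Plscr4* and at least 340 on each other member in every tumor. The counting error at the lowest of these numbers is 8.41% for *Plscr4* and 4.04% to 5.46% for the other members, and it covers counting only. The host labels were checked on T cell markers, whose summed level was 24.4 to 45.8 FPKM in Balb/c and 0.179 to 0.750 FPKM in NSG tumors. Osteoblast markers would mark an osteosarcoma with bone features. Of 8 such markers, *Bglap* was at 0 throughout Balb/c ATRX-CT, *Bglap2* throughout Balb/c ATRX-KD and *Ibsp* throughout both ATRX-KD groups. No marker was at 0 throughout NSG ATRX-CT. The summed level of the list was 108 to 296 FPKM in Balb/c ATRX-CT and 133 to 510 FPKM in Balb/c ATRX-KD tumors. It was 62.0 to 137 FPKM in NSG ATRX-CT and 103 to 195 FPKM in NSG ATRX-KD tumors. *Atrx* itself was at 11.6 to 24.4 FPKM in NSG ATRX-CT and 8.42 to 16.4 FPKM in NSG ATRX-KD tumors, with a log2 difference of -0.74 (SE 0.22, adjusted p = 0.0610 by limma). In Balb/c tumors it was at 10.3 to 26.0 and 7.88 to 21.5 FPKM (log2 difference -0.34, SE 0.36, adjusted p = 0.999 by limma). Because *Atrx* levels overlapped in both hosts, they do not check the labels of the shRNA.

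Per length, *Plscr2* had the highest mean level of the family and *Plscr4* the lowest. Over the 18 tumors the mean was 35.5 FPKM for *Plscr2*, 21.5 FPKM for *Plscr1*, 17.2 FPKM for *Plscr3* and 4.39 FPKM for *Plscr4*, and *Plscr4* was the lowest member in every tumor. The order of the others depended on the group. In all 5 NSG ATRX-CT tumors the level of *Plscr2* exceeded that of *Plscr1* and *Plscr1* exceeded *Plscr3*. This order was seen in 2 of 4 Balb/c ATRX-CT, 2 of 4 Balb/c ATRX-KD and 2 of 5 NSG ATRX-KD tumors. *Plscr3* was the highest member in the other tumors of both Balb/c groups and in 1 NSG ATRX-KD tumor. The members also differed in range, with a highest level 9.03 times the lowest for *Plscr2*, 4.36 times for *Plscr1*, 3.35 times for *Plscr4* and 1.53 times for *Plscr3*.

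**Figure D1:**
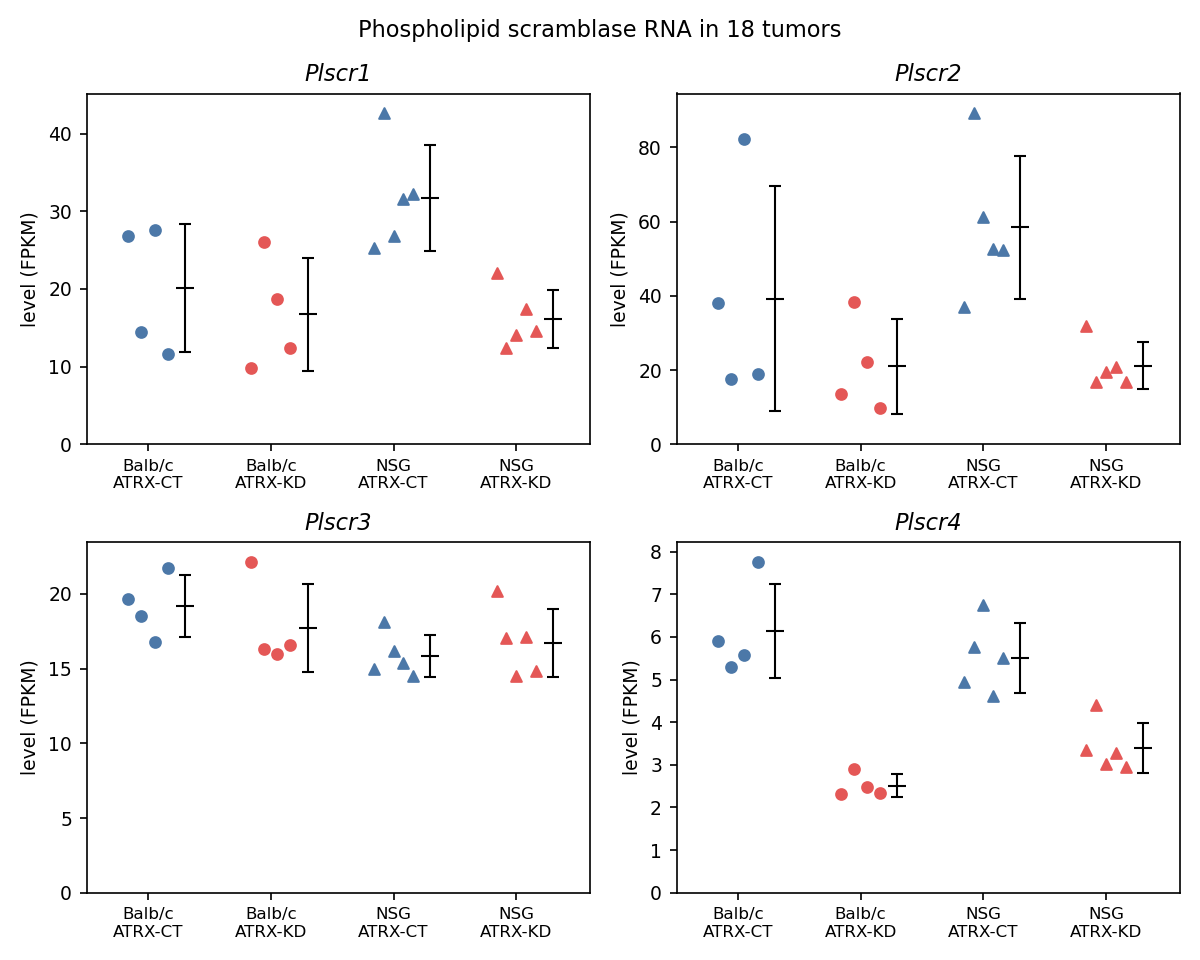
Level of each scramblase (FPKM, linear axis from 0) in the 18 tumors, by host and shRNA. Points are single tumors, circles for Balb/c and triangles for NSG hosts, and black bars give the mean and SD of each group. *Plscr4* separates the ATRX-CT from the ATRX-KD tumors in both hosts, *Plscr1* and *Plscr2* do so in NSG mice, and *Plscr3* does so in neither host. *Plscr4* was selected on its level in the Balb/c tumors.

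In NSG mice, *Plscr1*, *Plscr2* and *Plscr4* were lower in ATRX-KD than in ATRX-CT tumors, and *Plscr3* did not pass the test. Of the 4 members, 3 passed, all lower, where 3.05% of the 14654 genes tested passed in that direction and 6.78% in either. In each of the 3, every ATRX-KD tumor was below every ATRX-CT tumor, which held for 3.14% of all genes. Counted with the fold of at least 2 as well, 1 of 4 members was called, *Plscr2*, against 0.293% of all genes called lower and 0.464% called in either direction. *Plscr1* and *Plscr2* varied together over the NSG tumors (Pearson's r 0.97), so the 3 genes are not separate results. What else put the family forward is not recorded, so NSG values may have entered the choice, and these shares do not measure chance.

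*Plscr2*, the close relative of *Plscr1*, moved most. Its level was 36.9, 89.1, 61.2, 52.6 and 52.2 FPKM in the ATRX-CT tumors of mice 1 to 5 and 32.0, 16.7, 19.6, 20.9 and 16.7 FPKM in the ATRX-KD tumors of mice 26 to 30. All ATRX-KD values lay below the lowest ATRX-CT value, with mouse 26 nearest to it. The means were 58.4 ± 19.3 and 21.2 ± 6.30 FPKM (SD, n = 5 each), a ratio of 2.76 in favor of ATRX-CT. The log2 difference was -1.40 (SE 0.23, 95% interval -1.90 to -0.91, adjusted p = 0.0115 by limma) and ranked 21 from the lowest of all genes tested. The two-sided exact permutation test over tumors gave p = 0.00794, the smallest that its 252 arrangements allow.

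*Plscr1*, the interferon-induced founding member, followed it. The level of *Plscr1* was 25.3, 42.6, 26.8, 31.6 and 32.2 FPKM in ATRX-CT tumors 1 to 5 and 22.1, 12.4, 14.1, 17.4 and 14.6 FPKM in ATRX-KD tumors 26 to 30. The groups did not overlap, and the highest ATRX-KD tumor was again that of mouse 26 and the highest ATRX-CT tumor that of mouse 2. The means were 31.7 ± 6.80 and 16.1 ± 3.79 FPKM (SD, n = 5 each), and the log2 difference was -0.94 (SE 0.17, 95% interval -1.30 to -0.57, adjusted p = 0.0148 by limma). It ranked 108 from the lowest of all genes, and the exact permutation p was again 0.00794, the smallest possible. Without mouse 30 the difference was -0.91 with an adjusted p of 0.0500388 by limma, just above the threshold.

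The mean ratio of both genes was also lower in NSG ATRX-KD than in NSG ATRX-CT tumors. The log2 ratio of *Plscr2* to *Plscr1* was 0.54 to 1.19 in the 5 ATRX-CT tumors and 0.19 to 0.53 in the 5 ATRX-KD tumors. The groups only just failed to overlap: the nearest tumors were at 0.545 and 0.532, a gap smaller than the counting error of either gene. In Balb/c mice this ratio overlapped, at 0.28 to 1.58 in ATRX-CT and -0.33 to 0.56 in ATRX-KD tumors. The share of other gene pairs whose ratio separates the NSG groups was not counted. The ratio was examined after the levels had been seen and was not tested.

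*Plscr4* was lower by a smaller amount. It was at 4.94, 5.75, 6.75, 4.61 and 5.49 FPKM in ATRX-CT tumors 1 to 5 and at 3.35, 4.40, 3.02, 3.27 and 2.96 FPKM in ATRX-KD tumors 26 to 30. Here the ATRX-KD tumor nearest to the ATRX-CT group was that of mouse 27, not of mouse 26, and it lay just under that of mouse 4. The means were 5.51 ± 0.827 and 3.40 ± 0.582 FPKM (SD, n = 5 each), the log2 difference was -0.57 (SE 0.12, 95% interval -0.83 to -0.30, adjusted p = 0.0240 by limma), and the exact permutation p was 0.00794, the smallest possible. Without mouse 28, 29 or 30 the difference was -0.54, -0.56 or -0.53 and the adjusted p rose to 0.0685, 0.0598 or 0.0776 by limma.

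*Plscr3*, the mitochondrial member, was at 15.0, 18.1, 16.2, 15.4 and 14.5 FPKM in ATRX-CT and 20.2, 17.0, 14.5, 17.1 and 14.9 FPKM in ATRX-KD tumors. The groups overlapped, and only the ATRX-KD tumor of mouse 26 lay above all ATRX-CT tumors. The log2 difference was 0.07 (SE 0.10, adjusted p = 0.713 by limma), with a 95% interval of -0.16 to 0.30, and the exact permutation p was 0.524.

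The other genes next to the members were read from the same NSG fit, and none of those tested passed. To the right of *Plscr4*, *B430319G15Rik* was at 2.00 ± 0.483 FPKM in NSG ATRX-CT and 1.95 ± 0.397 FPKM in NSG ATRX-KD tumors (SD, n = 5 each; log2 difference -0.02, adjusted p = 0.952 by limma). Between *Plscr2* and *Plscr4* lies *1700057G04Rik*, which reached at most 0.0733 FPKM and was not tested. *Plscr5*, the remaining family gene, lies to the left of *Plscr1* and was not analysed here. Next to *Plscr3*, *Tmem256* had a log2 difference of -0.19 (SE 0.25, adjusted p = 0.661 by limma) and *Tmem95* was at most at 0.305 FPKM.

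**Figure D2:**
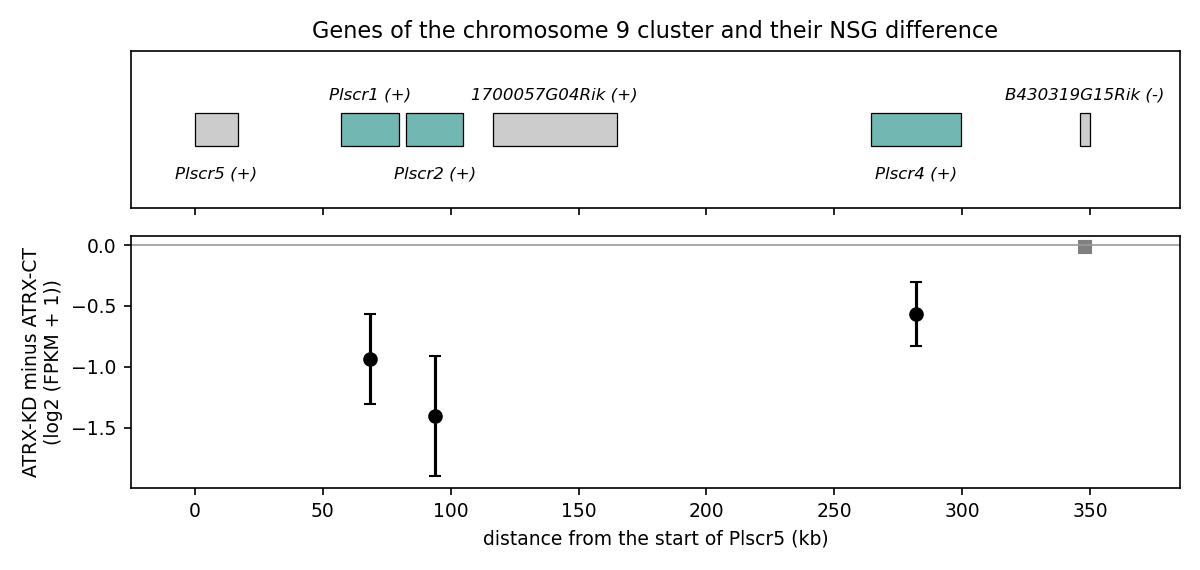
Genes of the chromosome 9 cluster (top; members green, other genes gray, strand in parentheses) by distance from the start of *Plscr5* in kb, and the difference between ATRX-KD and ATRX-CT tumors in NSG mice (bottom, log2 (FPKM + 1)) at the middle of each gene tested. Black points are members with the 95% interval of the limma fit and the gray square is *B430319G15Rik*; the members sit at -0.94, -1.40 and -0.57, and the neighbor at -0.02.

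Some markers of other cell types also differed between these NSG groups. The macrophage list had 2 of 8 genes that passed as lower (*C1qb* and *C1qc*), 7 of 8 below 0 and a median log2 difference of -0.47, and its summed level was 1815 to 2755 FPKM in ATRX-CT and 1376 to 2033 FPKM in ATRX-KD tumors. For endothelial markers 2 of 8 passed as higher (*Pecam1* and *Tie1*), with a median of 0.70 and summed levels of 16.6 to 49.8 and 38.2 to 57.4 FPKM. The adipocyte list had a median of 0.85 with 0 genes passing, and its summed level of 51.8 to 347 FPKM in ATRX-KD tumors enclosed the 69.8 to 81.9 FPKM of ATRX-CT tumors. No gene of these lists was at 0 throughout a group. Over all genes tested the median difference was -0.00141. The part of these cells in the scramblase differences was not tested.

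In Balb/c mice, *Plscr4* was again lower in ATRX-KD tumors, and the values are a description. Its level was 5.90, 5.30, 5.57 and 7.76 FPKM in the ATRX-CT tumors of mice 41, 43, 44 and 45 and 2.32, 2.90, 2.48 and 2.33 FPKM in the ATRX-KD tumors of mice 56, 58, 59 and 60. The groups lay well apart, with means of 6.13 ± 1.11 and 2.51 ± 0.270 FPKM (SD, n = 4 each) and a log2 difference of -1.02. Groups did not overlap in this direction for 1.93% of the 14701 genes tested, and 0.0068% were called, which was 1 gene. Across both hosts the 9 ATRX-CT tumors were at 4.61 to 7.76 FPKM and the 9 ATRX-KD tumors at 2.32 to 4.40 FPKM. The Balb/c tumors among them are those on which *Plscr4* was selected. The share of all genes that separate likewise over both hosts was not counted.

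Several marker lists lay to 1 side of 0 in the Balb/c groups as well, though only 1 of their genes passed. The mast cell cluster, which the study drew from these tumors and which is therefore no independent evidence of its direction, had 11 of 11 tested genes below 0 and a median log2 difference of -1.56. Its summed level was 181 to 435 FPKM in ATRX-CT and 44.4 to 110.2 FPKM in ATRX-KD tumors, and *Mcpt2*, a mast cell protease gene, was called lower. Endothelial markers had 0 of 8 below 0 (median 0.50), with summed levels of 38.1 to 73.3 and 52.9 to 135 FPKM. Adipocyte markers had 0 of 7 below 0 (median 0.64), with 80.1 to 93.2 and 124 to 245 FPKM. Skeletal muscle markers had 8 of 8 below 0 (median -0.67), with 7.49 to 53.0 and 1.49 to 37.4 FPKM. No gene of these lists was at 0 throughout a Balb/c group, and their part in the *Plscr4* difference was not tested.

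*Plscr1* and *Plscr2* overlapped between the Balb/c groups. *Plscr1* was at 26.8, 14.4, 27.6 and 11.6 FPKM in ATRX-CT tumors 41, 43, 44 and 45 and at 9.78, 26.1, 18.6 and 12.4 FPKM in ATRX-KD tumors 56, 58, 59 and 60. *Plscr2* was at 38.2, 17.5, 82.4 and 19.0 FPKM and at 13.5, 38.4, 22.2 and 9.87 FPKM. In either group, tumors at a low and at a high level of both genes stood side by side. The log2 differences were -0.25 for *Plscr1* and -0.77 for *Plscr2*, and leaving out single tumors moved them from -0.48 to -0.04 and from -1.11 to -0.32. Leaving out mouse 44 alone accounts for the smallest of the latter.

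*Plscr3* was at 19.7, 18.5, 16.8 and 21.7 FPKM in Balb/c ATRX-CT and 22.1, 16.3, 15.9 and 16.6 FPKM in ATRX-KD tumors, with a log2 difference of -0.11 and overlapping groups. The difference between the hosts in the effect of the knock-down (Balb/c minus NSG) was 0.68 for *Plscr1*, 0.64 for *Plscr2*, -0.18 for *Plscr3* and -0.45 for *Plscr4* on the log2 scale, again with no test. Across all genes, limma called 0 of 14803 for this difference (0%), with 1527 (10.3%) at an unadjusted p under 0.05.

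**Figure D3:**
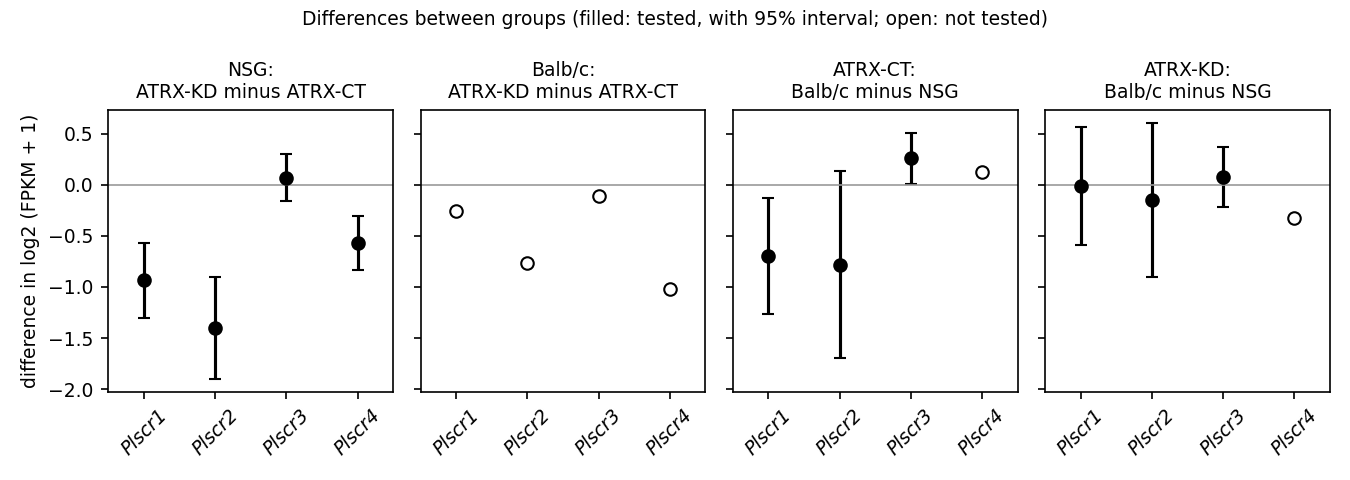
Difference in log2 (FPKM + 1) for each scramblase in the 4 comparisons named above each panel. Filled points with 95% intervals were tested by limma and open points are descriptions; the intervals of *Plscr1*, *Plscr2* and *Plscr4* in NSG mice lie below 0, and open *Plscr4* is at -1.02 in Balb/c mice.

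Host differences were compared within each kind of cell, and these comparisons share their tumors with those above. In ATRX-CT tumors, *Plscr1* was at 20.1 ± 8.29 FPKM in Balb/c (n = 4) and 31.7 ± 6.80 FPKM in NSG mice (n = 5, SD). The log2 difference (Balb/c minus NSG) was -0.70 (SE 0.26, 95% interval -1.27 to -0.13, adjusted p = 0.184 by limma, exact permutation p = 0.0952). *Plscr2* was at 39.3 ± 30.2 and 58.4 ± 19.3 FPKM, with a log2 difference of -0.78 (SE 0.41, 95% interval -1.70 to 0.13, adjusted p = 0.316 by limma, exact permutation p = 0.159). Neither passed, and both intervals reach beyond a fold of 2. Without the tumor of mouse 44, which had the highest *Plscr2* of the Balb/c tumors, the *Plscr2* difference was -1.23 and passed (adjusted p = 0.0441 by limma).

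*Plscr3* was at 19.2 ± 2.07 FPKM in Balb/c and 15.8 ± 1.41 FPKM in NSG ATRX-CT tumors. Its log2 difference of 0.26 (SE 0.11, 95% interval 0.01 to 0.51) did not pass over all genes (adjusted p = 0.240 by limma), while the exact permutation test of the single gene gave p = 0.0317, where 0.0159 is the smallest its 126 arrangements allow. Adjusted over the 10 permutation tests of the members it was 0.0794 and did not pass. In this comparison 3.18% of 14828 genes passed and 1.43% were called. *Plscr4* was at 6.13 ± 1.11 and 5.51 ± 0.827 FPKM, a log2 difference of 0.13 given with no test.

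In ATRX-KD tumors the means of the hosts were close for *Plscr1*, *Plscr2* and *Plscr3*. *Plscr1* was at 16.7 ± 7.25 FPKM in Balb/c and 16.1 ± 3.79 FPKM in NSG mice, and *Plscr2* at 21.0 ± 12.7 and 21.2 ± 6.30 FPKM. Their log2 differences were -0.01 (SE 0.26, 95% interval -0.59 to 0.56, adjusted p = 0.985 by limma) and -0.15 (SE 0.34, 95% interval -0.90 to 0.61, adjusted p = 0.860 by limma). For *Plscr3* it was 0.08 (SE 0.13, 95% interval -0.22 to 0.37, adjusted p = 0.806 by limma), and the exact permutation p of the 3 genes was 0.984, 0.730 and 0.540. These intervals still allow a difference of over 1.5 times for *Plscr1* and *Plscr2*. In this comparison 3.64% of 14669 genes passed and 1.39% were called. *Plscr4* is described only, at 2.51 ± 0.270 FPKM in Balb/c and 3.40 ± 0.582 FPKM in NSG mice, with no overlap, which held for 3.05% of genes in this direction.

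*Plscr1* and *Plscr2* varied together from tumor to tumor. Over the 18 tumors Pearson's r of their log2 values was 0.93 and Spearman's rho 0.92. It was 0.88 with the group means removed, 0.91 without the 2 tumors farthest from the median of *Plscr1*, 0.88 over the 8 Balb/c tumors and 0.97 over the 10 NSG tumors. Of 12181 genes whose mean over all tumors reached 1 FPKM, 2 were more like *Plscr1* than *Plscr2* was, and 1 was more like *Plscr2* than *Plscr1* was. The correlations of the other pairs ran from -0.33 (*Plscr1* and *Plscr3*) to 0.58 (*Plscr2* and *Plscr4*), and with the group means removed from -0.20 to 0.33. All these values are descriptions, and the points share library and depth.

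**Figure D4:**
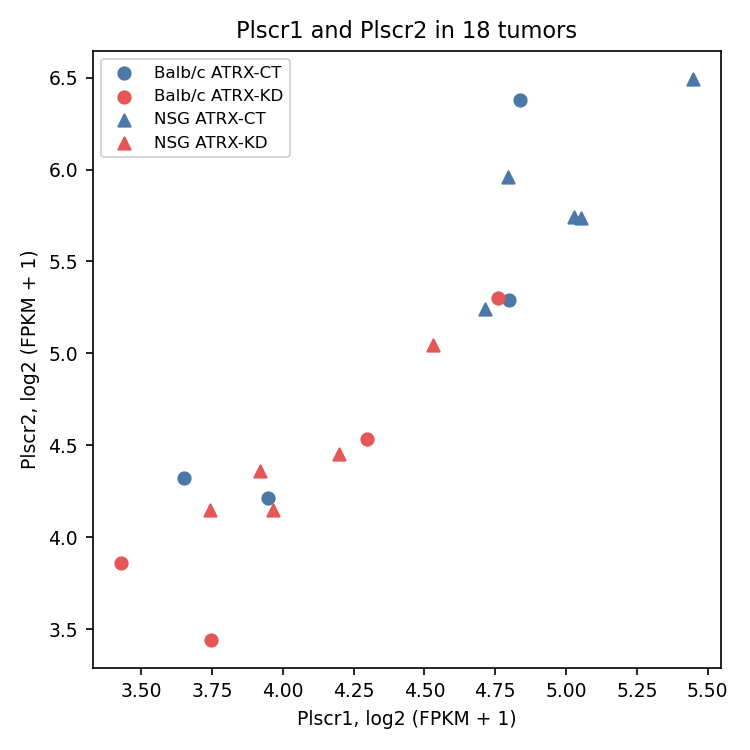
*Plscr1* against *Plscr2* in each of the 18 tumors, both as log2 (FPKM + 1), with circles for Balb/c and triangles for NSG hosts, blue for ATRX-CT and red for ATRX-KD. The points follow a common line (r 0.93), with NSG ATRX-CT tumors at the upper end and Balb/c tumors spread along it.

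By the same measure, the genes most like each member were listed. *A630033H20Rik* was the most like both *Plscr1* (r 0.95) and *Plscr2* (r 0.94), and its means were 5.55 and 4.62 FPKM in Balb/c and 8.17 and 4.46 FPKM in NSG mice, for ATRX-CT and ATRX-KD. *Plscr1* was also close to the membrane scaffold gene *Mpp1* (r 0.94) and the lysosomal membrane gene *Lamp2* (r 0.92), and *Plscr2* to the leukocyte adaptor gene *Lpxn* (r 0.90) and *1700112E06Rik* (r 0.89). For *Plscr3* these were *Foxp4* (r 0.87), *Fam206a* (r 0.83) and *Ccdc97* (r 0.83).

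*Plscr4* was most like *Golga1*, which encodes a golgin (r 0.89), the transcription factor gene *Tbx18* (r 0.85) and the secreted matricellular gene *Wisp2* (r 0.84). Mean levels of *Wisp2* were 107 and 46.1 FPKM in Balb/c and 113 and 46.2 FPKM in NSG mice, for ATRX-CT and ATRX-KD. Those of *Tbx18* were 3.78 and 1.99 FPKM and 3.19 and 2.01 FPKM. With the group means removed, r with *Plscr4* dropped to 0.60 for *Golga1*, 0.61 for *Tbx18* and 0.51 for *Wisp2*, whereas it stayed at 0.89 to 0.93 for the 3 genes most like *Plscr1*.

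The spread of *Plscr1* and *Plscr2* within the Balb/c groups was wide for their level. The within-group SD on the log2 scale was 0.92 for *Plscr2* in Balb/c tumors, larger than for 99.4% of 2678 genes within 0.5 of its mean log2 level, whose median SD was 0.25. For *Plscr1* it was 0.59, larger than for 96.3% of 2952 such genes. In NSG tumors the SDs were 0.41 and 0.29, larger than for 94.1% and 82.6% of genes at their level. *Plscr3* and *Plscr4* varied less than most genes at their level in both hosts, with SDs of 0.15 to 0.18. For *Plscr4* the Balb/c value is not independent of its selection, since a difference between these groups is more easily drawn where the spread is small.

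The low and high Balb/c tumors also differed in a property of the library. Relative to the mean of the 18 tumors, log2 (FPKM + 1) of each library changed along transcript length, by -0.15 to 0.21 per doubling of length. In the 4 Balb/c tumors with a slope of at least 0.1 (mice 43, 45, 56 and 60), *Plscr2* was at 9.87 to 19.0 FPKM, and in the other 4 at 22.2 to 82.4 FPKM. *Plscr1* was at 9.78 to 14.4 and at 18.6 to 27.6 FPKM, so neither gene overlapped between these tumors. Of the 14701 genes tested in Balb/c mice, 19.3% lay wholly lower in the tumors with the steeper slope and 35% lay wholly lower or wholly higher, so this separation was common among genes. *Plscr4* overlapped, at 2.32 to 7.76 and 2.48 to 5.90 FPKM. With the trend along length removed from every library, the within-group SD of *Plscr2* in Balb/c tumors was 0.86 and that of *Plscr1* 0.56. The part of this property in the spread was not tested. In NSG mice the slope was at least 0.1 in 1 ATRX-CT tumor (mouse 3) and 1 ATRX-KD tumor (mouse 27), and mouse 27 was the ATRX-KD tumor with the highest *Plscr4*.

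**Figure D5:**
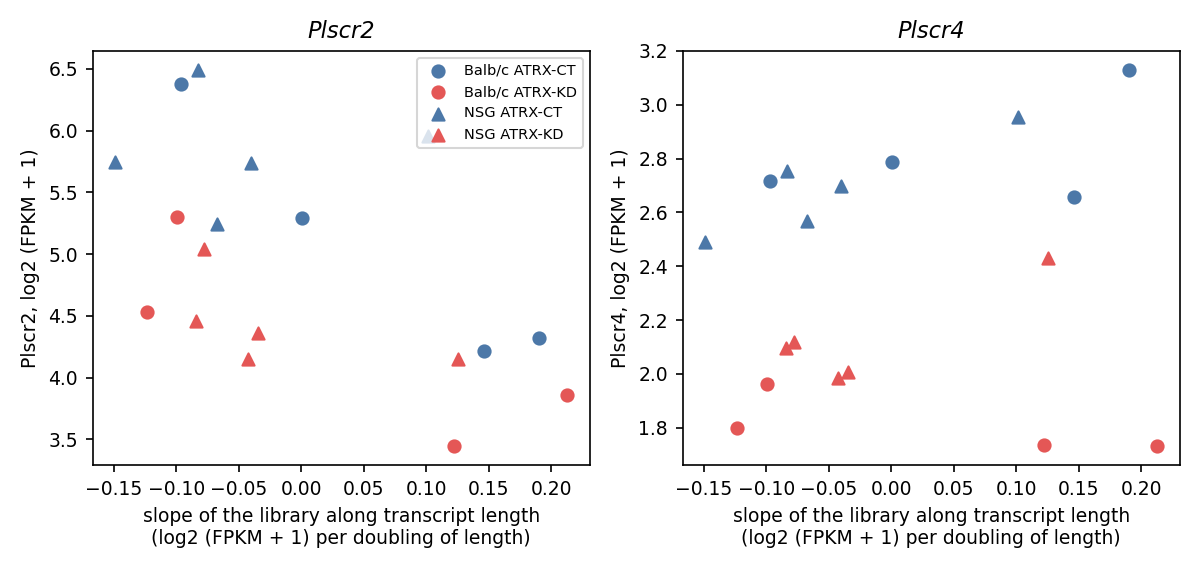
*Plscr2* (left) and *Plscr4* (right), as log2 (FPKM + 1), against the slope of each library along transcript length (log2 (FPKM + 1) per doubling of length), with circles for Balb/c and triangles for NSG hosts, blue for ATRX-CT and red for ATRX-KD. The 4 Balb/c tumors at slopes of 0.12 to 0.21 hold the 4 lowest Balb/c values of *Plscr2*. *Plscr4* separates ATRX-CT from ATRX-KD at low and high slopes, but it was selected on the Balb/c tumors. Among NSG tumors only those of mouse 3 (ATRX-CT) and mouse 27 (ATRX-KD) reach a slope of 0.1.

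Genes that act beside the family were counted from 6 lists. Among other scramblases, 0 of 7 tested passed in NSG mice, with a median log2 difference of 0.08, against -0.00141 over all genes. There *Ano6* was at 35.8 ± 6.67 FPKM in ATRX-KD and 26.6 ± 6.58 FPKM in ATRX-CT tumors (SD, n = 5 each; log2 difference 0.43, adjusted p = 0.128 by limma). *Xkr8* was at 1.59 ± 0.245 and 1.44 ± 0.206 FPKM (log2 difference 0.08, adjusted p = 0.616 by limma). Of the flippases, the pumps that move phospholipids to the inner leaflet, counted with their subunits, 0 of 12 passed (median -0.02). Of genes for proteins or targets tied to PLSCR1, 0 of 11 passed (median 0.12). None of the genes of these 3 lists passed in either host comparison.

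Genes that recognize exposed phosphatidylserine had 6 of 11 below 0 in NSG ATRX-KD tumors, with a median log2 difference of -0.05. Where 6.78% of all genes passed in either direction, 0 of these 11 passed as lower and 1 as higher. It was *Mfge8*, a secreted protein that bridges phosphatidylserine to integrins on phagocytes, at 70.1 ± 6.86 FPKM in ATRX-KD and 48.2 ± 9.71 FPKM in ATRX-CT tumors (SD, n = 5 each; log2 difference 0.54, adjusted p = 0.0328 by limma). In ATRX-KD tumors *Mfge8* was lower in Balb/c than in NSG mice, by a log2 difference of -0.45 (adjusted p = 0.0463 by limma). There *Timd4*, a phosphatidylserine receptor of macrophages, was called higher in Balb/c mice, at 5.44 ± 2.14 against 1.28 ± 0.464 FPKM (log2 difference 1.45, adjusted p = 0.00730 by limma).

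Of 9 cardiolipin genes tested in NSG mice, 2 passed as higher and 1 as lower in ATRX-KD tumors. None was called at a fold of at least 2, and 6.78% of all genes passed in either direction. *Taz*, which encodes the cardiolipin remodeling enzyme tafazzin, fell by 0.73 on the log2 scale (22.3 ± 2.00 to 13.1 ± 1.30 FPKM, SD, n = 5 each, adjusted p = 0.00541 by limma). *Lclat1*, an acyltransferase that acts on lysocardiolipin, rose by 0.64 (adjusted p = 0.0255 by limma), and *Tamm41*, needed for an early step of cardiolipin synthesis, by 0.40 (adjusted p = 0.0192 by limma). The median of the list was -0.02.

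Interferon-stimulated genes, to which *Plscr1* itself belongs, had 22 of 25 below 0 in NSG ATRX-KD tumors, with a median log2 difference of -0.17, but only 1 passed. This was the antiviral GTPase gene *Mx1*, at 11.8 ± 2.40 FPKM in ATRX-KD and 18.8 ± 2.81 FPKM in ATRX-CT tumors (SD, n = 5 each; log2 difference -0.64, adjusted p = 0.0288 by limma). The value for *Plscr1*, -0.94, lay below those of all 25, a difference that was not tested. In ATRX-CT tumors 21 of 25 were lower in Balb/c than in NSG mice (median -0.51), and 1 was called, *Ifit3*, at 28.3 ± 15.4 FPKM (n = 4) against 62.5 ± 12.3 FPKM (n = 5; log2 difference -1.22, adjusted p = 0.0418 by limma). In ATRX-KD tumors none passed (median -0.15). Within the Balb/c host 1 of 25 was below 0 in ATRX-KD tumors and the median was 0.20, while *Plscr1* was at -0.25.

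Over the 18 tumors, the mean log2 level of the interferon list had an r of 0.61 with *Plscr1*, 0.52 with *Plscr2*, -0.67 with *Plscr3* and -0.17 with *Plscr4*. Spearman's rho was 0.58, 0.52, -0.61 and -0.04. Without the 2 tumors farthest from the median of the list, r was 0.48, 0.48, -0.63 and 0.14. With the group means removed it was 0.65, 0.60, -0.57 and -0.49. With the macrophage list, r was 0.48 for *Plscr1*, 0.46 for *Plscr2*, 0.15 for *Plscr3* and 0.46 for *Plscr4*, and 0.32, 0.25, 0.19 and 0.40 with the group means removed. With the endothelial list it was -0.77 for *Plscr1*, -0.69 for *Plscr2*, 0.46 for *Plscr3* and -0.46 for *Plscr4*. Removing the group means left -0.59, -0.40 and 0.34 for the first 3 and turned *Plscr4* to 0.25. With the neutrophil list r was 0.35, 0.33, 0.14 and -0.10, and with the group means removed it was 0.68 for *Plscr1*, 0.67 for *Plscr2*, -0.079 for *Plscr3* and -0.19 for *Plscr4*. With the adipocyte list it was -0.21, -0.22, -0.28 and -0.46, and -0.0044, 0.059, -0.23 and -0.27 with the group means removed. These are descriptions over tumors that share library and depth.

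Genes of the lists that passed other than *Timd4* and *Ifit3* (*Mfge8*, *Taz*, *Lclat1*, *Tamm41*, *Mx1* and the markers named above) were named after their values had been seen.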

How the data were processed

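The members and the gene lists were chosen with earlier results of these data known. RNA was measured in 18 grafted tumors. The authors ribo-depleted total RNA, made stranded libraries, aligned reads to mm10 with STAR 2.6.0c, removed reads of low quality and duplicates, and quantified RefSeq genes with Cufflinks 2.2.1. The authors deposited the values as log2 (FPKM + 1) for 20878 genes and 92 spike-ins, which were left out, and ran their own comparison with DESeq. Depths are estimates, because whole reads could not be recovered from these values: at the best depth, 37.0% to 42.0% of low values came out as a whole fragment, give or take 0.1 (by chance, 20%).

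Log2 values, with the pseudocount of 1 that they hold, were tested with limma 3.58.1 in R 4.3.3 (a linear model with moderated variances and a trend along level). Each pair of groups was fitted alone on genes whose mean in it reached 0.1 FPKM, and the difference between hosts in 1 fit of all tumors. Single members were compared with two-sided exact permutation tests of the log2 values (scipy 1.17.1, Python 3.11.15). The scripts were first tested on simulated data.

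Named genes are the members, the 3 genes most like each, the genes next to them, and up to 3 called genes per list and tested comparison. The 15 marker lists of cell types or tissues, 2 of them of mast cells, were counted, and those not described here are given with the other observations. A second promoter motif that was planned is not reported here. Coding identity was computed with Biopython 1.88 from GENCODE M21 transcripts (GRCm38). Alternatives were a pseudocount of 0.1, a mean of 1 FPKM or no filter at all, calls at any fold, median-ratio scaling, values freed of the trend with length, weights per library together with a robust prior, 1 fit for all tumors, and each tumor left out.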

Additional observations from a re-analysis of the deposited data

Results flagged for a closer look

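In 1 of 16 combinations of member and group, a tumor stood far from the others. Among the 4 Balb/c ATRX-KD tumors, *Plscr3* was at 22.1 FPKM in mouse 56 (4.53 as log2 (FPKM + 1)), against 15.9 to 16.6 FPKM in the other 3. The gap to the nearest tumor was 0.885 of the whole range of the group. Chance flags about 1 in 20 such groups. Mouse 56 also had the steepest slope along transcript length of the 18 tumors, 0.213, and with that trend removed its *Plscr3* value was 4.49 on the log2 scale. The part of the slope in this value was not tested.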

How the results depend on the processing

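No paired analysis was possible because the groups share no replicate numbers. The 10 tested member differences had 164 values under the alternatives, of which 149 kept direction and side of the threshold, 4 kept direction and no longer passed, 2 newly passed and 9 changed sign.

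In NSG mice, leaving out single tumors gave -1.05 to -0.83 for *Plscr1* (adjusted p by limma up to 0.0500388), -1.56 to -1.24 for *Plscr2* (up to 0.0388) and -0.64 to -0.50 for *Plscr4* (up to 0.0776). In ATRX-CT tumors between hosts, *Plscr3* was 0.32 and passed with library weights (adjusted p = 0.0260 by limma), and *Plscr2* was -1.23 to -0.50 when single tumors were left out. In ATRX-KD tumors between hosts, library weights turned *Plscr1* to 0.43 and *Plscr2* to 0.48, and leaving out single tumors gave -0.25 to 0.20 for *Plscr1*, -0.49 to 0.13 for *Plscr2* and -0.028 to 0.14 for *Plscr3*. None of these last values passed, and the cause of the sign changes was not tested.

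Counts of called genes depended on the settings. In NSG mice there were 68, but 226 with a pseudocount of 0.1, 201 with library weights, 994 without the fold threshold and 27 (without mouse 30) to 124 (without mouse 26) when single tumors were left out. Between hosts, 212 in ATRX-CT tumors became 416 with the pseudocount of 0.1 and 472 without the fold threshold, and 204 in ATRX-KD tumors became 424 and 534. In Balb/c mice 1 gene became 0 with a mean of at least 1 FPKM, with no filter and with the length trend removed, 9 in a fit of all tumors, 15 with library weights and 0 to 2 without single tumors. For the difference between hosts in the effect of the knock-down, 0 became 195 with library weights and 0 to 1 without single tumors.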

Other observations

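The remaining marker lists were counted between ATRX-KD and ATRX-CT tumors of NSG mice, on the same tests. The mast cell cluster that the study drew from its Balb/c tumors had 0 of 10 tested genes passing (median log2 difference 0.16), and of 10 other mast cell genes *Gata2* and *Rab27b* were higher and *Srgn* was lower (median 0.24). In the NK cell list 1 of 2 tested genes was lower, *Klra8*, and the median was -0.53. No gene passed in the lists for pericytes and smooth muscle (median 0.02), fibroblasts (0.27), neutrophils (-0.33), T cells (0.02, 1 gene tested), B cells (-0.15), skeletal muscle (-0.01), keratinocytes (0.11), Schwann cells (0.07) and osteoblasts (-0.12). The genes that passed were named after their values had been seen. The part of any of these cells in the scramblase levels was not tested.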
